A study of Mus musculus with 92 samples.

Results

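Nuclear pore and nuclear transport genes were examined in single blastomeres of 8-cell mouse embryos. Members were taken by gene symbol from the deposited count table: the nucleoporins (Nup, Pom121), exportins (Xpo), importins (Ipo, Kpna, Kpnb), transportins (Tnpo), Ran-binding proteins (Ranbp) and Rangap1, together with Cse1l, Ran, Tpr and Ndc1. This gave 53 genes of 7886, made up of 8 exportins, 16 importins, 23 nucleoporins, 4 proteins of the Ran cycle and 2 genes, Ranbp9 and Ranbp10, that are here by name only. A further 7 annotated genes whose symbols meet the rule, Kpna7, Nup210, Nup210l, Pom121l12, Pom121l2, Ranbp3l and Ranbp6, were not analysed here. All 53 members passed the filter on low counts.

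The embryos, labelled IVF, were wild-type C57BL/6N, injected as zygotes with a mimic of let-7d (Let7d) or let-7e (Let7e), with a microRNA that the labels call mi699a-5p, or with a negative control (NC), grown to the 8-cell stage and taken apart. All 4 groups were therefore injected, and no uninjected embryo is among them. Smart-seq2, a full-length single-cell RNA method without molecular identifiers, was used on 81 cells of 14 mouse ids: 22 NC cells of 3 ids, 18 Let7d cells of 3, 20 Let7e cells of 4 and 21 mi699a-5p cells of 4. What a mouse id stands for (embryo, mother or donor) is not given in the labels, so p-values below measure only the spread between mouse ids, which may be technical. Each group has its own mouse ids.

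A cell carried 1575609 to 4950404 reads, and a mouse id 2 to 8 cells. Reads per cell, averaged by mouse id, lay between 2225246 and 2732434 in NC, 2991646 and 4071285 in Let7d, 2916581 and 3164732 in Let7e, and 1936975 and 2437853 in mi699a-5p. The share of reads on ribosomal RNA genes was 9.24 to 15.9% in NC, 3.68 to 8.79% in Let7d, 6.0 to 14% for Let7e and 8.03 to 12.6% in mi699a-5p. All 8 blastomere markers looked for had reads in every group, Pou5f1, Klf5, Tead4, Cdh1, Dppa3, Tfap2c, Sall4 and Nanog, and their summed level in TMM-scaled CPM, reads relative to the library total, ranged from 5525 to 10140 over the 14 mouse ids. The 9 cumulus and granulosa markers looked for were not analysed here. One pair of columns of Let7d replicate 2 differed by no more than sampling noise (chi-square of 1.05 per gene, against 28.7 for the next closest of 3321 pairs) and was counted as 1 cell.

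Proteins and RNA cross the nuclear envelope through the nuclear pore complex, a ring of nucleoporins in which outer and inner scaffold rings hold a central channel lined with flexible phenylalanine-glycine repeats. Importins carry cargo with a nuclear localization signal inward, and exportins carry cargo with a nuclear export signal outward. Both read the state of the small GTPase Ran, which is bound to GTP in the nucleus and to GDP in the cytoplasm, so that importins drop their cargo inside and exportins drop theirs outside. After the first cleavages an embryo rebuilds its pores at each division while its own genome takes over from the maternal stock of RNA.

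The mature let-7d and let-7e sequences (RefSeq, GRCm38.p6) are shown because both share the seed, bases 2 to 8, in capitals, by which a microRNA finds its targets. Mature let-7d lies at chr13:48536078-48536099 on the minus strand and let-7e at chr17:17830366-17830387 on the plus strand.
mmu-let-7d-5p: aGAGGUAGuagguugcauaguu
mmu-let-7e-5p: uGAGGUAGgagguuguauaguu
Counted from the 5′ end, let-7e differs from let-7d by A1U, U9G and C16U, all outside the seed. No sequence is printed for mi699a-5p.

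The members whose 3′ UTR carries a full match to this seed are shown next, because a let-7 mimic could bind them directly by this rule. A full match to bases 2 to 8 (CTACCTC, sense strand of the longest GENCODE M21 3′ UTR) was present in 6 of 53 members (11.3%) and in 794 of 7574 genes with an annotated 3′ UTR (10.5%). The exportin genes Xpot and Xpo7, the importin alpha genes Kpna1 and Kpna4, and the nucleoporin genes Nup155 and Nup62 held it. With a shorter match also counted (TACCTCA), 13 of 53 members (24.5%) and 1277 of 7574 genes (16.9%) had a site. Sites of the shorter match alone are not shown. Each site is given with the 14 bases before it, the match in capitals, on GRCm38.
Xpot (chr10:121588037-121588058, minus strand): gggaacagtggtagCTACCTCA
Xpo7 (chr14:70664305-70664326, minus strand): aaaatgaagacagtCTACCTCt
Xpo7 (chr14:70657969-70657990, minus strand): tccacatgatctaaCTACCTCt
Kpna1 (chr16:36035108-36035129, plus strand): ctcctactagtaccCTACCTCc
Kpna4 (chr3:69067864-69067885, minus strand): attctgaatagcttCTACCTCt
Nup155 (chr15:8159720-8159741, plus strand): ctcattgggtgtcaCTACCTCg
Nup62 (chr7:44830559-44830580, plus strand): cacttttgcactggCTACCTCt
Xpot alone among the 53 members had the longer form with an A after the match (CTACCTCA), which 280 of the 7574 genes had. Xpo1 and Cse1l, the exportins that differed most from NC, had no full match in their 3′ UTRs. A match is a description of these letters and not evidence of binding.

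The exportin transcripts of Xpo1 and Cse1l were more abundant in injected microRNA groups than in NC, and the other exportins showed smaller differences. Xpo1 lay above every NC mouse id in all 11 mouse ids that received a microRNA. None of the 8 exportins passed an adjusted p of 0.05 in edgeR's quasi-likelihood test in any comparison.

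Xpo1 (chromosome 11, 23256041 to 23298249, GRCm38) encodes the main exporter of proteins with a leucine-rich export signal, and also carries ribosomal subunits and small nuclear RNAs. Its level was 445, 574 and 616 CPM in NC and 737, 1050 and 1170 CPM in Let7d. It was 806, 1050, 1080 and 811 CPM in Let7e, and 988, 993, 1290 and 912 CPM in mi699a-5p. The lowest microRNA value, Let7d replicate 1, stood above the highest NC value, so that NC overlapped with no other group, while the 3 microRNA groups overlapped with each other. The NC mean was 545 ± 89.1 CPM (SD, n = 3), against 986 ± 223 in Let7d (n = 3), 937 ± 149 in Let7e (n = 4) and 1050 ± 168 in mi699a-5p (n = 4).

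In log2 units Xpo1 was higher than NC by 0.86 ± 0.22 (SE) with let-7d, by 0.78 ± 0.21 with let-7e and by 0.94 ± 0.21 with mi699a-5p. The mean of the 3 microRNA groups lay 0.86 ± 0.19 above NC, with an unadjusted p of 0.00023, rank 2 of 7886 genes, and an adjusted p of 0.663 in edgeR. The adjusted p values of the single groups were 0.886, 0.999 and 0.504 in the same order. These comparisons share the NC mouse ids. Among all genes 0.507% had every microRNA mouse id above every NC mouse id, and Xpo1 was the only one of the 53 members to do so (1.89%). DESeq2, another count model, called Xpo1 at adjusted p = 0.00676 in the mean of the microRNA groups and at adjusted p = 0.0246 in mi699a-5p. Over the alternatives tried, that adjusted p ran from 0.00676 to 1 for the mean and from 0.0246 to 0.999 for mi699a-5p. The log2 difference from NC stayed between 0.73 and 0.97 for the mean.

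Cse1l (chromosome 2, 166906040 to 166946389) encodes the exportin that returns importin alpha to the cytoplasm after each round of import. Cse1l measured 189, 190 and 224 CPM in NC, and 370, 356 and 445 CPM in Let7d. Let7e gave 255, 364, 303 and 207 CPM, and mi699a-5p gave 325, 248, 366 and 342 CPM. Let7d and mi699a-5p did not overlap with NC, and 1 Let7e mouse id fell inside the NC range. The log2 difference from NC was 0.96 ± 0.23 for Let7d, 0.49 ± 0.22 for Let7e and 0.67 ± 0.22 for mi699a-5p, with unadjusted p of 0.000681, 0.0387 and 0.00693. By edgeR the adjusted p were 0.886, 0.999 and 0.858. The mean over cells of log2 CPM, tested with limma, gave 0.39 for mi699a-5p.

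**Figure D1:**
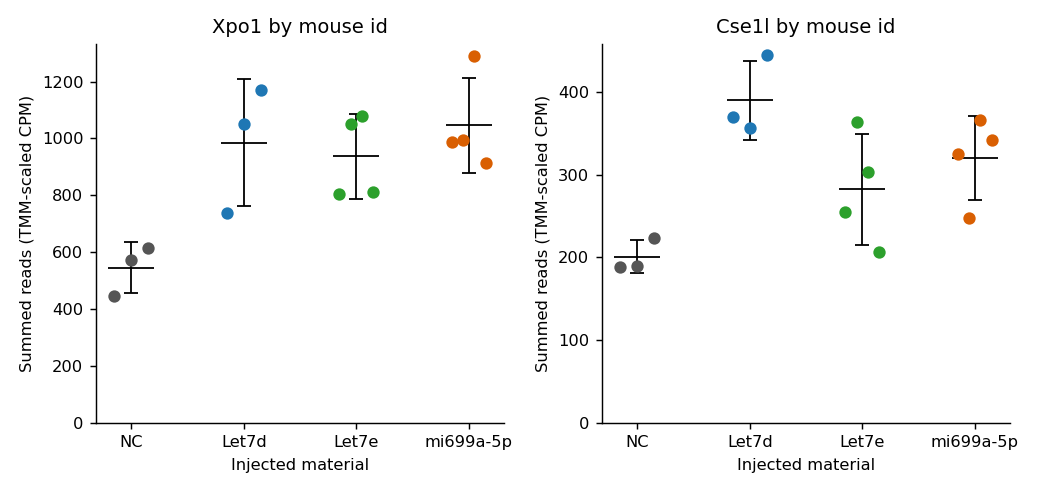
Level of Xpo1 (left) and Cse1l (right) in each mouse id, as reads summed over its cells in TMM-scaled CPM, by injected material. Points are mouse ids, and the bar and whiskers are the mean ± SD. All 11 microRNA mouse ids lie above the NC mouse ids for Xpo1, while 1 Let7e mouse id (207 CPM) lies inside the NC range for Cse1l.

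Xpot exports mature tRNA. It measured 169, 151 and 262 CPM in NC and 329, 287 and 330 CPM in Let7d, with no overlap, and differed by 0.70 ± 0.30 on the log2 scale (unadjusted p = 0.0298, adjusted p = 0.986 in edgeR). Its values were 188 to 395 CPM for Let7e and 168 to 313 CPM in mi699a-5p, both overlapping NC. Xpo6 exports profilin-bound actin. It measured 51.4, 32.6 and 82.2 CPM in NC, 28.6, 47.5 and 40.7 CPM in Let7d, 73, 92.8, 83.3 and 53.8 CPM in Let7e, and 21.3, 36.1, 95.5 and 49.9 CPM in mi699a-5p. Every Let7e value lay above every Let7d value, whereas NC and mi699a-5p overlapped with both. Let7e exceeded Let7d by 0.96 ± 0.44 in log2 units (unadjusted p = 0.0428, adjusted p = 0.924 in edgeR), and by 0.51 with a Y-linked covariate. The other 4 exportins, Xpo4, Xpo5, Xpo7 and Ranbp17, had no unadjusted p under 0.05 in any comparison. Xpo5, chosen for mention after its values were seen because it exports microRNA precursors, differed from NC by 0.17, -0.08 and 0.22 in the order Let7d, Let7e, mi699a-5p.

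Ipo5 and Tnpo3 stood above NC in the mean of the microRNA groups at an unadjusted p under 0.05, and Tnpo2 and Kpnb1 were higher in the let-7 groups than in mi699a-5p. No importin had an adjusted p of 0.05 or less by edgeR, DESeq2 or limma.

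Ipo5 imports ribosomal proteins and histones and was, with Kpna2, among the most abundant importins. It measured 860, 806 and 973 CPM in NC and 1240, 1040 and 1240 CPM in Let7d. In Let7e it was 906, 1520, 1160 and 918 CPM, and in mi699a-5p 1180, 1260, 1320 and 1040 CPM. Let7d and mi699a-5p lay wholly above NC, and 2 Let7e mouse ids lay inside its range. The mean of the microRNA groups was 0.41 ± 0.17 above NC in log2 units (unadjusted p = 0.0296, adjusted p = 1.0 in edgeR).

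Kpnb1, importin beta, is the carrier that works with importin alpha in the classical import route. It measured 207, 150 and 222 CPM in NC, 168, 178 and 177 CPM in Let7d, 222, 253, 288 and 228 CPM in Let7e, and 115, 179, 156 and 106 CPM in mi699a-5p. The lowest Let7e value was level with the highest NC value, and Let7e overlapped with neither Let7d nor mi699a-5p. Let7e exceeded Let7d by 0.51 ± 0.23 (unadjusted p = 0.0392, adjusted p = 0.924 in edgeR), and by 0.31 with a Y-linked covariate. The mean of both let-7 groups exceeded mi699a-5p by 0.58 ± 0.19 (unadjusted p = 0.00728, adjusted p = 0.635), although the Let7d values by themselves fell inside the mi699a-5p range.

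Tnpo2 is a transportin that imports RNA-binding proteins. Its level was 91.5, 113 and 90.7 CPM in NC, 127, 140 and 106 CPM in Let7d, 121, 214, 161 and 119 CPM in Let7e, and 95.6, 56.5, 104 and 75.8 CPM in mi699a-5p. Every let-7 mouse id stood above every mi699a-5p mouse id. The difference between the mean of the let-7 groups and mi699a-5p was 0.74 ± 0.23 in log2 units (unadjusted p = 0.00476, adjusted p = 0.635 in edgeR). Against NC, Let7e was higher by 0.64 ± 0.27 and mi699a-5p differed by -0.25 ± 0.27.

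Tnpo3 imports splicing factors rich in serine and arginine. It differed from NC by 0.71 ± 0.25 in Let7d (unadjusted p = 0.0117) and by 0.49 ± 0.21 in the mean of the microRNA groups (unadjusted p = 0.0299), with adjusted p of 0.986 and 1.0 in edgeR. Ipo13, which carries cargo both ways, was close to the limit of detection. It measured 4.52, 23.4 and 2.03 CPM in NC, 2.91, 2.56 and 4.9 CPM in Let7d, 6.9, 4.93, 1.47 and 12.1 CPM in Let7e, and 10.5, 45.7, 6.37 and 18.1 CPM in mi699a-5p. Both let-7 groups lay 2.1 ± 0.73 below mi699a-5p in log2 units (unadjusted p = 0.0103, adjusted p = 0.635 in edgeR), with overlapping values, and the gene had no read in 51 of 81 cells. Over the alternatives that difference ran from -2.38 to -1.02, the latter with limma on the mean over cells.

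Most nucleoporin transcripts lay slightly above NC, and Nup160 stood farthest above in the mean of the microRNA groups, in Let7d and in Let7e, while Nup155 and Nup107 (both 0.58) did so in mi699a-5p. In the mean of the microRNA groups 18 of 23 nucleoporins were above NC and 5 below, with a median difference of 0.17 in log2 units (all genes 0.02). Nup160 also was the only nucleoporin with an unadjusted p under 0.05 in that comparison.

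Nup160 belongs to the outer ring, or Y complex, which seeds pore assembly. It measured 65.9, 89.9 and 94.9 CPM in NC and 127, 152 and 271 CPM in Let7d. It measured 107, 132, 118 and 156 CPM in Let7e, and 120, 88.5, 155 and 108 CPM in mi699a-5p. Both let-7 groups lay wholly above NC, and 1 mi699a-5p mouse id fell inside the NC range. The log2 difference from NC was 1.13 ± 0.31 in Let7d (unadjusted p = 0.00163), 0.62 ± 0.29 with let-7e (unadjusted p = 0.0445) and 0.50 ± 0.29 in mi699a-5p (unadjusted p = 0.0981), and the adjusted p by edgeR were 0.886, 0.999 and 0.904. The Let7d value ranged from 0.75, without Let7d replicate 3, to 1.34 over the alternatives.

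By place in the pore, the medians against NC in the mean of the microRNA groups were 0.21 for the 6 outer ring members, 0.17 for the 5 inner ring members (Nup35, Nup93, Nup155, Nup188 and Nup205), 0.07 for the 3 central channel members (Nup54, Nup62 and Nup98), 0.24 for the 3 members on the cytoplasmic side (Nup88, Nup214 and Ranbp2), 0.07 for the 3 basket members (Nup50, Nup153 and Tpr) and 0.01 for the membrane members Ndc1 and Pom121. The inner ring scaffold gene Nup205 was above NC by 0.57 ± 0.26 in Let7e (unadjusted p = 0.0423, adjusted p = 0.999 in edgeR). The outer ring gene Nup85, by contrast, differed by -0.10 in the mean of the microRNA groups.

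The 4 Ran cycle members lay on both sides of NC in Let7d and Let7e, with 2 above and 2 below in each, and all 4 lay below NC in mi699a-5p. Of these members, 1 lay above NC and 3 below in the mean of the microRNA groups, with a median of -0.13 in log2 units. Ranbp1, which helps the GTPase activating protein Rangap1 to act on Ran, measured 177, 163 and 213 CPM in NC and 125, 135 and 136 CPM in Let7d, with no overlap. That difference was -0.48 ± 0.23 (unadjusted p = 0.0479, adjusted p = 1 in edgeR). Ran itself measured 748, 566 and 613 CPM in NC and 517 to 648 CPM in Let7d, 539 to 852 CPM for Let7e and 486 to 623 CPM in mi699a-5p, overlapping throughout. Ran has processed pseudogenes, and how the counting treated reads they share is not given in the sources used here.

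Ranbp9 and Ranbp10 encode related scaffold proteins first found by their binding to Ran. Ranbp10 was above NC by 0.74 ± 0.34 in mi699a-5p (unadjusted p = 0.0457, adjusted p = 0.871 in edgeR). Ranbp9 measured 27.2, 22.9 and 26.5 CPM in NC, and lay below all of these in every Let7d and mi699a-5p mouse id, where the values were 8.91 to 16.4 and 5.09 to 22 CPM. In Let7e its values were 31.8, 13.5, 14.2 and 16.2 CPM, of which the first stood above NC. It passed no unadjusted p of 0.05.

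**Figure D2:**
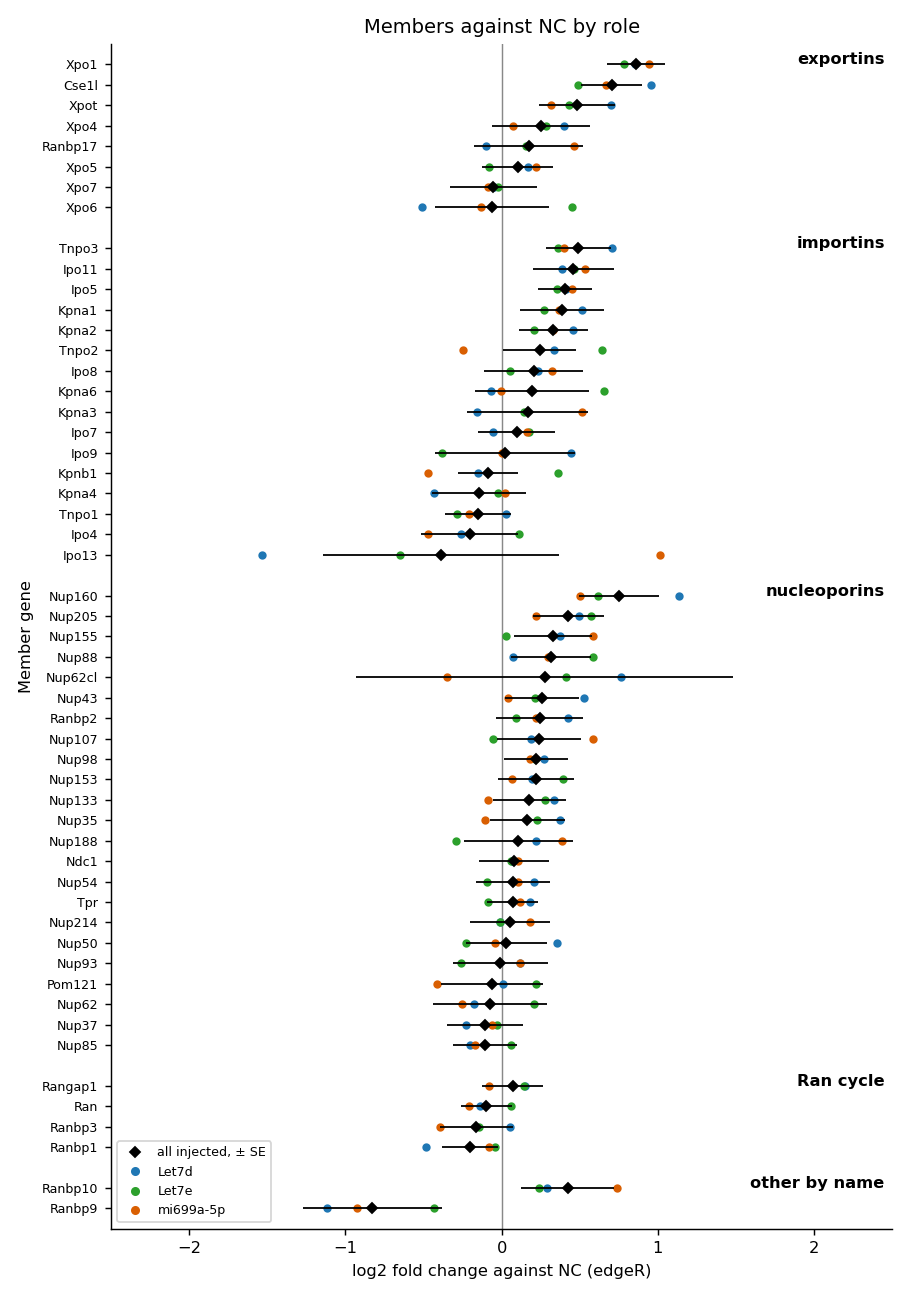
Log2 fold change against NC of the 53 members, grouped by role and ordered by the mean of the 3 microRNA groups (black diamonds, ± SE), with the single groups as coloured points. Xpo1, Cse1l and Nup160 lie farthest to the right of 0, at 0.86, 0.71 and 0.75, and Ranbp9 farthest to the left, and none passed the adjusted threshold by edgeR.

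Over the whole set, 0 of 53 members passed an adjusted p of 0.05 by edgeR in any of the 7 comparisons. Among all 7886 genes, 0.0127% passed in Let7d against NC and in the mean of the microRNA groups against NC, and 0.0% passed in Let7e, in mi699a-5p, between the microRNA groups and across the 4 labels together. At an unadjusted p under 0.05 Let7d had 6 members (11.3%, all genes 4.69%), 5 of them higher (all genes 2.65%) and 1 lower (all genes 2.04%). Let7e had 5 (9.43%, all genes 4.02%), all higher (all genes 2.33% higher and 1.69% lower), and mi699a-5p had 4 (7.55%, all genes 5.5%), all higher (all genes 3.2% higher and 2.31% lower). The mean of the microRNA groups had 5 (9.43%, all genes 4.31%), all higher (all genes 2.62% higher and 1.69% lower), and the test of any difference among the labels also had 5 (9.43%, all genes 5.59%). Between the microRNA groups the shares were near those of all genes. Let7e against Let7d had 3 members (5.66%, all genes 5.39%), 2 higher (all genes 2.79%) and 1 lower (all genes 2.6%), and both let-7 groups against mi699a-5p had 3 (5.66%, all genes 6.39%), 2 higher (all genes 2.7%) and 1 lower (all genes 3.69%). These small counts moved when 1 mouse id was left out: in Let7d to 3 without its replicate 1 or 3, in mi699a-5p to 2 without NC replicate 1, and in Let7e to 2 without NC replicate 1 or 2, to 1 without Let7e replicate 2 and to 3 without Let7e replicate 3. In the mean of the microRNA groups the count was 2 without NC replicate 1, 3 without mi699a-5p replicate 3 and 8 without Let7e replicate 1. It was 1 without NC replicate 1 and 0 without Let7d replicate 3 in Let7e against Let7d, and 5 without mi699a-5p replicate 1 or 3 in the let-7 groups against mi699a-5p. DESeq2 called 1 member, Xpo1, in mi699a-5p, where it called 7 of all genes. It also called Xpo1 in the mean of the microRNA groups, where it called 6 of all genes. By limma 0 members were called.

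More members lay above NC than below. Members above NC numbered 36 of 53 in Let7d (67.9%, all genes 51.0%), 36 in Let7e (67.9%, all genes 51.9%), 33 in mi699a-5p (62.3%, all genes 54.1%) and 37 in the mean of the microRNA groups (69.8%, all genes 51.7%). In Let7e against Let7d 23 of 53 were higher (43.4%, all genes 50.8%), and in both let-7 groups against mi699a-5p 32 were higher (60.4%, all genes 46.2%). Members whose Let7d mouse ids all lay above NC numbered 11 (20.8%, all genes 6.0%): Nup35, Nup160, Cse1l, Tnpo3, Nup133, Nup43, Xpot, Xpo1, Ipo11, Ipo5 and Nup155. Those wholly below NC in Let7d were Ranbp9 and Ranbp1 (3.77%, all genes 5.96%). In Let7e the members above were Nup160, Tnpo2, Xpo1 and Nup88 (4 members, 7.55%, all genes 2.78%) and 0 lay below (all genes 2.84%), and in mi699a-5p Cse1l, Xpo1 and Ipo5 (3 members, 5.66%, all genes 4.51%), with Ranbp9 below (1.89%, all genes 3.87%). Over all microRNA mouse ids 0 members lay below NC (all genes 0.279%). The comparisons with NC share its 3 mouse ids and are not separate evidence.

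Exportin transcripts took a larger share relative to importins in every microRNA mouse id than in NC, and did not when Xpo1 and Cse1l were left out. Summed over the 8 exportins the level was 1109 to 1505 CPM in NC, 1773 to 2292 CPM for Let7d, 1514 to 2248 CPM for Let7e and 1663 to 2397 CPM for mi699a-5p. Summed importins gave 3270 to 3990 CPM in NC, 3730 to 4560 in Let7d, 3380 to 5070 for Let7e and 3760 to 4670 in mi699a-5p. Summed nucleoporins gave 3000 to 3380 CPM in NC, 3330 to 3930 in Let7d, 2920 to 3690 for Let7e and 2960 to 3780 in mi699a-5p. The exportin sums did not overlap with NC, by a small margin in Let7e, while importins and nucleoporins overlapped with NC in each group.

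For every 100 importin reads there were 33.9 to 37.8 exportin reads in NC, against 38.9 to 54.7 in Let7d, 39.2 to 46.3 for Let7e and 44.2 to 51.3 in mi699a-5p, with no overlap with NC. Without Xpo1 and Cse1l the ratio was 12.8 to 16.7 in NC and 14.6 to 16.8, 12.9 to 16.4 and 11.2 to 15.8 in the other groups, all overlapping. Relative to nucleoporins the exportin ratio was 35.0 to 49.5 in NC and 45.2 to 63.9 in Let7d, 42.2 to 67.6 for Let7e and 51.9 to 63.4 in mi699a-5p, so that only mi699a-5p did not overlap. Per 100 importin reads the Ran cycle gave 30.5 to 43.5 reads in NC, 26.3 to 34.1 in Let7d, 26.8 to 39.1 for Let7e and 22.2 to 31.4 in mi699a-5p. Median log2 differences from NC in the mean of the microRNA groups were 0.21 for exportins (6 of 8 above 0), 0.18 for importins (11 of 16) and 0.17 for nucleoporins (18 of 23), which lay close together. By single group the medians of exportins, importins and nucleoporins were 0.29, 0.13 and 0.21 in Let7d, 0.36, 0.19 and 0.09 in Let7e, and 0.27, 0.25 and 0.11 in mi699a-5p. The classes were not tested against each other.

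Beside these differences, the ribosomal RNA share was lower in Let7d than in NC without overlap, and reads per cell were higher in Let7d and Let7e than in NC without overlap. Of the 8 blastomere markers, 1 lay above NC and 7 below in Let7d, 4 and 4 in Let7e, and 3 and 5 in mi699a-5p. Pou5f1, a pluripotency factor among them, differed from NC by -0.79 ± 0.32 in mi699a-5p (unadjusted p = 0.0236, adjusted p = 0.861 in edgeR) and by -0.58 ± 0.27 in the mean of the microRNA groups (unadjusted p = 0.0425, adjusted p = 1.0). The summed level of 3 Y-linked genes ran from 62.9 to 160 CPM in NC, 0.182 to 144 in Let7d, 45.5 to 160 for Let7e and 0.235 to 175 in mi699a-5p. The part of the ribosomal RNA share or of the markers in the results was not tested. When every cell was thinned to the lowest total, Xpo1 lay 0.81 above NC in the mean of the microRNA groups, against 0.86 before. Thinning keeps the expected share of each gene in the reads of a cell, so it cannot show the part of depth, which was not tested. With a Y-linked covariate the difference of Xpo1 was 0.82.

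Members with a let-7 seed match were found on both sides of NC. The 6 members with a full match had a median difference from NC of 0.16 in Let7d and 0.12 in Let7e, with 3 of 6 and 2 of 6 below 0. The 47 members without a full match, some of which held the shorter match, had 0.19 and 0.16. Xpot, with the longest match, was above NC by 0.70 ± 0.30 in Let7d and by 0.43 ± 0.28 in Let7e. Kpna4, with 1 match, differed by -0.43 ± 0.38 in Let7d and by -0.02 ± 0.36 in Let7e, and Xpo7, with 2, by -0.05 ± 0.35 and -0.02 ± 0.33. Kpna1 differed by 0.52 and 0.27, Nup155 by 0.37 and 0.03, and Nup62 by -0.17 and 0.21 in Let7d and Let7e. Among all genes with an annotated 3′ UTR, the 794 with a match had medians of 0.05 in Let7d and 0.01 in Let7e against 0.01 and 0.02 for all 7574.

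In CPM per kilobase of exon, on which genes can be compared with each other, the set was more abundant than the typical gene, with a median of 20.0 against 9.96 for all genes with a length. By class the medians were 75 for the Ran cycle, 21.7 for importins, 16.7 for nucleoporins and 12.5 for exportins. These are means over the 14 mouse ids.

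By merged exon length Ran was highest at 231 ± 36.5 (SD, n = 14), followed by Ipo5 at 184 ± 34, Kpna2 at 181 ± 42.8, Xpo1 at 125 ± 33.6, Nup85 at 115 ± 24.1 and Ranbp1 at 101 ± 17.7. Neighbours in this order lay within 1 SD of each other except Ran and Ipo5, and Kpna2 and Xpo1. The order depended on the length used: by the longest annotated transcript Ran and Kpna2 were both at 253, Ipo5 at 244, Nup85 at 174, Ranbp1 at 155 and Xpo1 at 149. Kpna2, an importin alpha, is the adaptor that binds classical localization signals. The scaffold gene Nup85 led the nucleoporins, followed by the basket gene Tpr and the outer ring gene Nup43 at 60.5 each. After Xpo1, the exportins Cse1l and Xpot had 56.7 and 41.9, and after Kpna2 the importin Ipo7, a carrier of ribosomal proteins, had 52.0. Rangap1 stood at 49.1 and Ranbp3, a cofactor of Xpo1, at 30.4.

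By merged exon length, the exportins Xpo7 (3.01) and Xpo6 (3.33) had the lowest levels of their class. So did the importins Ipo8 (2.37) and Ipo13 (2.48), and the nucleoporins Nup62cl (3.87) and Nup188 (6.29), in theirs. Within the exportins the levels therefore spanned from 3.01 to 125, within the importins from 2.37 to 184, and within the nucleoporins from 3.87 to 115. The level of Kpnb1, the partner of all importin alphas, was 28.7, below that of its adaptors Kpna2 and Kpna1 (46.1) and above Kpna3 (10.4), Kpna6 (10.2) and Kpna4 (5.47). In NC alone Xpo1 had a level of 75.9, below Ranbp1 (111) and Nup85 (121). The low end also depended on the length used. By the longest annotated transcript Ipo8 (6.18) stood above Ipo13 (2.91), Ipo9 (3.88) and Kpna4 (5.55), and Xpo6 (7.68) above Ranbp17 (6.2). Xpo7, Nup62cl and Nup188 stayed among the lowest of their classes.

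**Figure D3:**
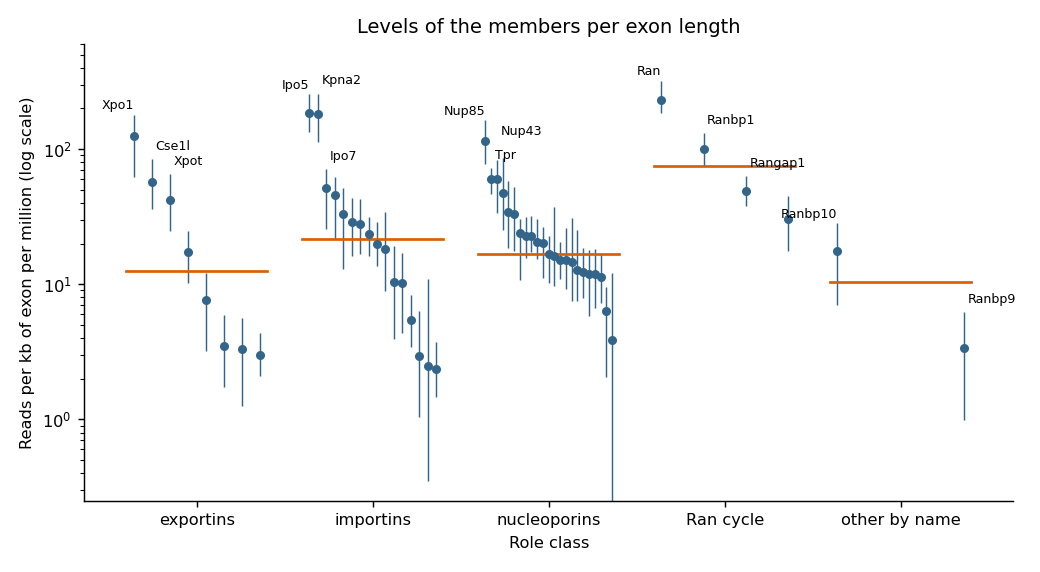
Level of each member in CPM per kilobase of exon (log axis), grouped by role and ordered from high to low. Points are means over the 14 mouse ids, whiskers run from the lowest to the highest mouse id, and orange lines are class medians (75 for the Ran cycle, 12.5 for exportins). The whisker of Nup62cl reaches 0 and leaves the log axis.

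Cells of one mouse id differed more in Xpo1 than in most genes of its level, while Nup35 was among the most even genes for its level. The coefficient of variation (CV, the SD over cells within mouse ids divided by the mean) was 0.481 for Xpo1, 1.43 times the trend for genes of its level. The excess over the trend was larger than for 94.1% of genes, although the CV itself was below the median of all genes (0.777). Ipo13 (2.73, or 2.04 times the trend), Nup62cl (2.24, or 1.54 times) and Xpo6 (0.98, or 1.43 times) were the other members farthest above the trend, and of these Ipo13 and Nup62cl had no read in 51 and 53 of 81 cells. The least variable for their level were the inner ring gene Nup35 (CV 0.347, 0.579 times the trend), the importin Ipo4 (0.376, 0.791 times), Ranbp10 (0.452, 0.823 times) and the cytoplasmic side gene Nup88 (0.437, 0.827 times). Ran had a CV of 0.306, which was 0.865 times the trend. Members above the trend numbered 31 of 53 (58.5%, all genes 50.6%), and 33 of 53 had reads in every cell (62.3%, all genes 34.1%).

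**Figure D4:**
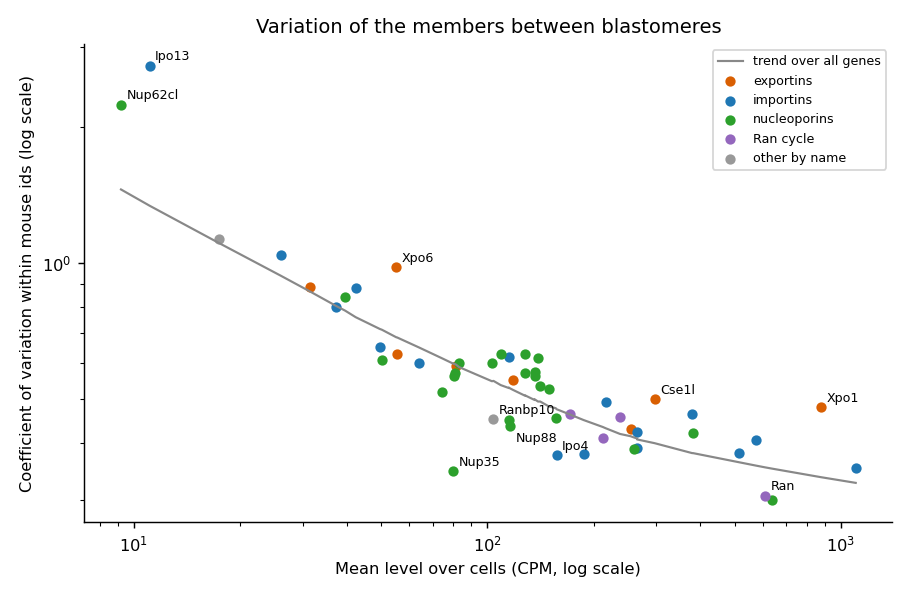
Coefficient of variation of each member over cells within mouse ids against its mean level in CPM (both axes log), coloured by role. The grey line is the trend over all genes. Xpo1 lies 1.43 times above the line near the right edge, and Nup35 lies lowest against it at 0.579 times.

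Single NC cells ranged from 64.7 to 1640 CPM for Xpo1, with a median of 478. The median cell had 1050 CPM in Let7d, 1010 for Let7e and 1170 in mi699a-5p, and 17 of 18, 17 of 20 and 17 of 21 cells were above the NC median. Cells far below the rest occurred in each microRNA group, with lowest values of 43.4 CPM in Let7d, 150 for Let7e and 45.4 in mi699a-5p. NC cells instead spread down to 64.7 CPM without such a gap. Within NC replicate 1 the highest cell exceeded the lowest by 14.9 times, and within mi699a-5p replicate 2 by 41.9 times, whereas in Let7d replicate 2 the ratio was 1.73 and in mi699a-5p replicate 3 it was 1.47. For Cse1l the median cell had 183 CPM in NC, 440 in Let7d, 263 for Let7e and 350 in mi699a-5p, and 12 of 18 Let7d, 5 of 20 Let7e and 4 of 21 mi699a-5p cells stood above the highest NC cell. For Xpo1 only 1, 0 and 1 cells did so. Cells of one mouse id are not replicates, so these counts describe the cells and do not test the groups. The same counts were not made for all genes. For Xpo1 and Cse1l the estimated share of variance between mouse ids of a group was 0%, where negative estimates were set to 0. The same held for 33.6% of all genes and 39.6% of members, and the median over all genes was 4.39%. The share was 36.4% for Ipo4 and 32.5% for Ranbp10.

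Xpo1 varied from cell to cell together with a group of other carriers. Over the 81 cells, with the mean of each mouse id removed from log2(CPM + 1), its correlation was 0.774 with Ipo5, 0.74 with Ipo7, 0.734 with Cse1l, 0.703 with Tnpo3, 0.693 with Kpna1, 0.67 with Nup160, 0.668 with Ipo11, 0.64 with Nup107 and 0.566 with Xpot. These 9 of 52 other members exceeded 0.5 (17.3%), and so did 3.87% of all genes. The values share the cell, its library and its depth. Correlations ran the other way for Ranbp1 (-0.495) and Ran (-0.431), the only members under -0.3. These were 2 of 52 members, against 782 of 7885 genes, so such values were not particular to the set. Over all member pairs the median was 0.115, against 0.017 for all genes.

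In each group taken alone the correlation of Xpo1 with Ipo5 was 0.871 in NC, 0.641 in Let7d, 0.595 for Let7e and 0.862 in mi699a-5p. For Xpo1 and Ran the values were -0.514, -0.408, -0.401 and -0.403 in the same order. For Xpo1 and Ranbp1 they were -0.338, -0.012, -0.4 and -0.848, so that in Let7d no relation was visible. A Let7d cell of replicate 1 had 43.4 CPM of Xpo1, and every other Let7d cell had 799 CPM or more. How far such cells with little Xpo1 carry these correlations was not tested. Xpo1 had a correlation of -0.091 with log2 reads per cell, 0.009 with the number of genes detected and -0.089 with the ribosomal RNA share. For Cse1l these were 0.093, 0.344 and -0.108. Dppa3, a maternal-effect gene among the blastomere markers, had -0.631 with Xpo1, Pou5f1 had -0.24, and Cdh1, the adhesion protein of compaction, had 0.388. Correlations with the other blastomere markers were not computed.

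**Figure D5:**
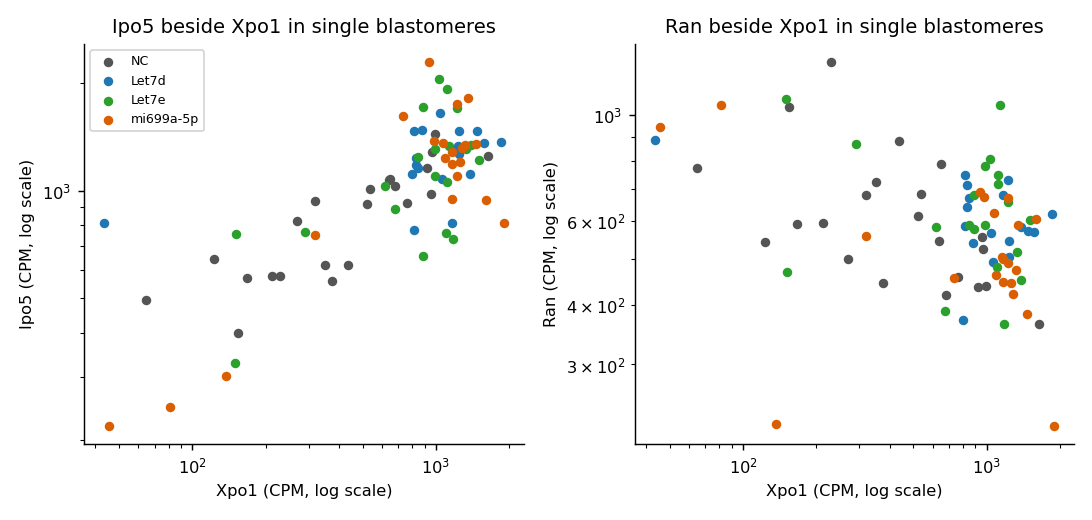
Level of Ipo5 (left) and Ran (right) against Xpo1 in the 81 blastomeres, in CPM on log axes, coloured by injected material. Ipo5 is higher in cells with more Xpo1 (0.774 within mouse ids) and Ran lower (-0.431), and NC cells have the lowest median Xpo1, 478 CPM.

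Other genes of the pathway, from lists outside the symbol rule, gave few differences. Of 8 measured further pore proteins (such as Seh1l, Sec13 and Ahctf1, partners in the outer ring), 7 Ran cycle proteins and adaptors (such as Rcc1, the exchange factor that loads Ran with GTP, and Nutf2, which returns Ran to the nucleus) and 16 mRNA export factors, 0 were called in 6 comparisons by edgeR, DESeq2 or limma. At an unadjusted p under 0.05 edgeR gave 0, 0 and 4 results in these lists over the 6 comparisons, and among all genes 4.02 to 6.39% passed in a single comparison, so that the share in the mRNA export list was near the background. The 4 were the mRNA export factors Pcid2, which was -0.62 ± 0.27 from NC in Let7e, Thoc1, which was 0.64 ± 0.24 above NC in mi699a-5p and 0.53 ± 0.21 in the mean of the microRNA groups, and Thoc6, which was 0.78 ± 0.33 higher in both let-7 groups than in mi699a-5p. Further pore proteins had a median of -0.15 against NC in the mean of the microRNA groups, with 3 of 8 above 0, while the 23 nucleoporins of the rule had 0.17. The 7 Ran cycle proteins and adaptors had 0.09 and the 16 mRNA export factors 0.11.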

How the data were processed

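Raw read counts per gene and cell were deposited by the authors, and the tools recorded per the submitters' processing notes include STAR, with the build GRCm38.p6; the counting program is not given in the sources used here. The table, named as taken after a CPM filter, holds 7886 genes, of which 7884 matched a symbol in GENCODE M21. The labels list 92 cells; 82 had a column, 10 were not analysed here and 1 near-identical pair was counted once. A deposited RPKM table was not used, because the gene length it implies differs between cells. For each mouse id its cells' counts were added (6329464 to 24037593 reads) and tested with edgeR 4.0.16 (TMM, quasi-likelihood F test, 1 fit of 4 groups, common dispersion 0.249, filterByExpr removing 0 genes), two-sided, with Benjamini-Hochberg adjustment over all genes at 0.05. The fits were also run on simulated counts, which had a smaller spread and mostly larger changes than these data. That run cannot show how well differences of the size reported here are recovered. DESeq2 1.42.0, limma 3.58.1, other scaling, filters, thinning, covariates and leaving out each mouse id were alternatives. Variation between cells was set against a lowess trend (fraction 0.2) of squared CV on level over all genes. Named with every value are Xpo1, Cse1l and the 3 members with the smallest unadjusted p in each comparison; named more briefly are the 3 highest and 2 lowest members by level in each role, the 4 most and 4 least variable against the trend, and those with a let-7 seed match. Others are named by counts of unadjusted p or of groups without overlap. The members and gene lists were chosen with earlier results of these data known. Same-numbered mouse ids did not deviate together over all genes, so they were not paired in the main test. This cannot show whether the numbers mark something shared. A batch that coincides with a group and what that group received cannot be told apart. Counts have no molecular identifiers.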

Additional observations from a re-analysis of the deposited data

How the results depend on the processing

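Counts below are genes of all 7886 past an adjusted p of 0.05, and unless stated edgeR is used. For Let7d against NC the count of 1 became 0 with a replicate block, with a Y-linked covariate, in the 2 groups alone and by limma, and 2 by DESeq2; leaving out 1 mouse id gave 0 to 1, with 0 without NC replicate 1 or 3, Let7d replicate 1 or 3, Let7e replicate 1, 2 or 4, or mi699a-5p replicate 1. For the mean of the microRNA groups against NC the count of 1 became 0 with a replicate block, with the Y-linked covariate and by limma, and 6 by DESeq2, with 0 to 1 on leaving out 1 mouse id (0 without NC replicate 3). For mi699a-5p against NC DESeq2 gave 7, and leaving out 1 mouse id 0 to 2 (2 without mi699a-5p replicate 3). DESeq2 gave 8 for Let7e against Let7d, 6 for both let-7 groups against mi699a-5p and 15 across the labels, where leaving out 1 mouse id gave 0 to 1 for the first and last (1 without Let7d replicate 2 in both, and without mi699a-5p replicate 3 in the last). Among members, DESeq2 called 1, Xpo1, in mi699a-5p (0.92) and in the mean (0.85), and no other alternative called any. The cause of these differences was not tested.

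With a replicate block Xpo1 lay 0.90 above NC in the mean of the microRNA groups (adjusted p = 0.108). Same-numbered mouse ids of different groups had a median correlation of 0.018 (-0.126 to 0.128), against -0.003 for others. Differences of Xpo1 and Cse1l near 0 turned sign. For Let7e against Let7d Xpo1 ran from -0.24 to 0.0504 on leaving out 1 mouse id (the latter without Let7d replicate 3), and was 0.002 with the replicate block and 0.004 with the Y-linked covariate. For both let-7 groups against mi699a-5p Xpo1 ran from -0.17 to 0.0298 (the latter without mi699a-5p replicate 3) and was 0.032 by limma, and Cse1l ran from -0.0526 to 0.16 (-0.02 without Let7e replicate 2 and -0.0526 without mi699a-5p replicate 2) and was 0.31 by limma. The importin median against NC ran from 0.064, without Let7d replicate 1, to 0.285, without NC replicate 2. On the longest annotated transcript the level of Ipo5 was 244 and that of Nup85 was 174, with Kpna2 (253) above Ipo5, and Nup85 above Xpo1 (149). Ipo13 and Nup62cl had no read in 51 and 53 of 81 cells, which limits the precision of their values.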
